A study of Homo sapiens with 2 samples.

Results

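The 31 genes described here encode enzymes and regulators of sterol and fatty acid synthesis, chosen by name from their known roles, and all 31 were found among the 58698 genes of the deposited table. Expression was measured by RNA sequencing in MIA PaCa-2, an established human pancreatic cancer cell line. One library came from cells carrying a guide RNA against GFP, a sequence human cells lack, labelled as wild type and called sgGFP. The other came from cells carrying a guide against TPST2, labelled as a TPST2 knockdown and called sgTPST2; TPST2 is a Golgi enzyme that sulfates tyrosines of secreted and membrane proteins. The form of Cas9, and whether each culture was a clone or a pool, are not stated in the labels. Each condition was 1 library, so the spread between cultures is unknown, no difference below has a replicate check, and none was tested.

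Cells build cholesterol from acetyl-CoA through mevalonate, farnesyl diphosphate, squalene and lanosterol, and build saturated and unsaturated fatty acids from the same precursor. Many of these genes are targets of the SREBP transcription factors (genes SREBF1 and SREBF2), membrane proteins that the escort SCAP carries from the endoplasmic reticulum to the Golgi for cleavage when sterols are scarce, and that the INSIG proteins retain when sterols are plentiful. Proliferating tumour cells often run both routes to make membrane, and SREBP targets are known to rise together when sterols run low.

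Values are FPKM (fragments per kilobase, adjusted for library depth). The header names no unit, so FPKM is assumed from the tool used. Differences are log2((sgTPST2 + 1)/(sgGFP + 1)), and a gene entered the counts below if either library had it at 1 FPKM or more. The steps between low values put 1 FPKM at about 42.0 fragments per kb in sgGFP and at about 47.6 in sgTPST2. The Poisson 95% intervals below assume 1 kb of transcript and cover counting error only. TPST2 itself stood at 8.46 FPKM in sgGFP (interval 7.62 to 9.40) and at 1.92 in sgTPST2 (1.54 to 2.35). The epithelial keratins KRT8 and KRT18 were at 509.9 and 583 FPKM in sgGFP and at 41.6 and 85.3 in sgTPST2, and KRT19 at 189.0 and 12.8. EPCAM was listed at 0 in both, CDH1 at 0 and 0.0524, and KRT7 at 0.615 and 0.112. Of the mesenchymal markers, VIM was at 2661 and 3118, ZEB1 at 13.2 and 13.9, and CDH2 at 0.0133 and 0. Summed levels were 29.1 and 3.69 FPKM for 5 fibroblast markers (nearly all COL1A2, with DCN and LUM at 0), 3.54 and 1.66 for 5 leukocyte markers and 3.10 and 0.282 for 4 endothelial markers. They were 0.0174 and 0.181 for 5 adipocyte markers and 0.219 and 0.0160 for 5 hepatocyte markers. All 4 acinar and all 4 islet markers were listed at 0. The part of the keratin and COL1A2 differences in the values below was not tested.

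The summed level of the pathway was similar in the 2 libraries, while single steps of it stood apart in both directions. The 31 genes, regulators included, summed to 1131 FPKM in sgGFP and 1141 in sgTPST2. Abundant genes weigh most in these sums, above all FDPS, ACLY and EBP, so a similar sum says little about the less abundant genes. Of the 30 genes past the filter, 16 lay below 0 and 14 above, and their median log2 difference was -0.01, beside a median of -0.00019 over all 13420 genes past the filter. Within 1.2-fold lay 18 of the 30, and within 1.1-fold 12. The sterol enzymes HSD17B7, TM7SF2 and DHCR7 were at least 1.5-fold lower in sgTPST2, which is 3 of 30 members or 10%, beside 6.94% of all genes past the filter. LSS and ELOVL6 were at least 1.5-fold higher, which is 2 of 30 or 6.67%, beside 4.41% of all genes. One gene is worth 3.33 percentage points here, so neither count stands far from its background. Among the 29 members with a mean of at least 5 FPKM the shares were 10.3% lower and 6.90% higher, and among 8572 protein-coding genes at that level 4.11% and 2.47%. LSS, at 1.51-fold, lay just inside the limit and IDI1, at 1.46-fold, just outside it.

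**Figure D1:**
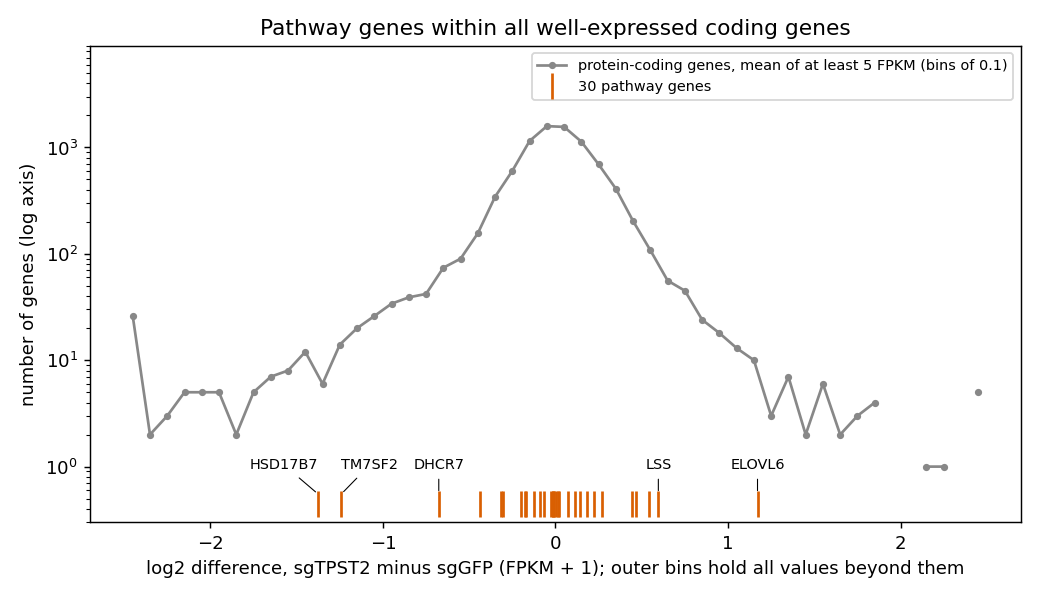
Distribution of log2 differences (horizontal, FPKM + 1) over 8572 protein-coding genes with a mean of at least 5 FPKM (points joined by a line, number of genes per bin of 0.1 on a log axis), with each of the 30 pathway genes past the filter as a vertical tick. Most ticks lie near 0, with HSD17B7, TM7SF2 and DHCR7 to the left and LSS and ELOVL6 to the right.

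Counting error alone was smaller than many of these differences. The intervals of sgGFP and sgTPST2 did not overlap for 15 of the 30 genes (50.0%), 7 lower and 8 higher in sgTPST2, beside 42.1% of the 11048 protein-coding genes past the filter. The members' share is near that of coding genes past the filter of 1 FPKM, but the levels differ. Of the 30 members, 29 had a mean of at least 5 FPKM, and genes at lower levels have relatively wider intervals. The share among coding genes at the members' level was not counted. In the authors' deposited table no member passes Cuffdiff's q at 0.05, beside 96 of all 58698 genes. The targeted gene TPST2, at 8.46 and 1.92 FPKM, does not pass it either (Cuffdiff's q 0.245). With 1 library per group, a q above 0.05 therefore does not mean that a gene was unchanged. Among the members, the lowest Cuffdiff q in the authors' deposited table is 0.244, for HSD17B7, and the other 30 members have q above 0.99.

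**Figure D2:**
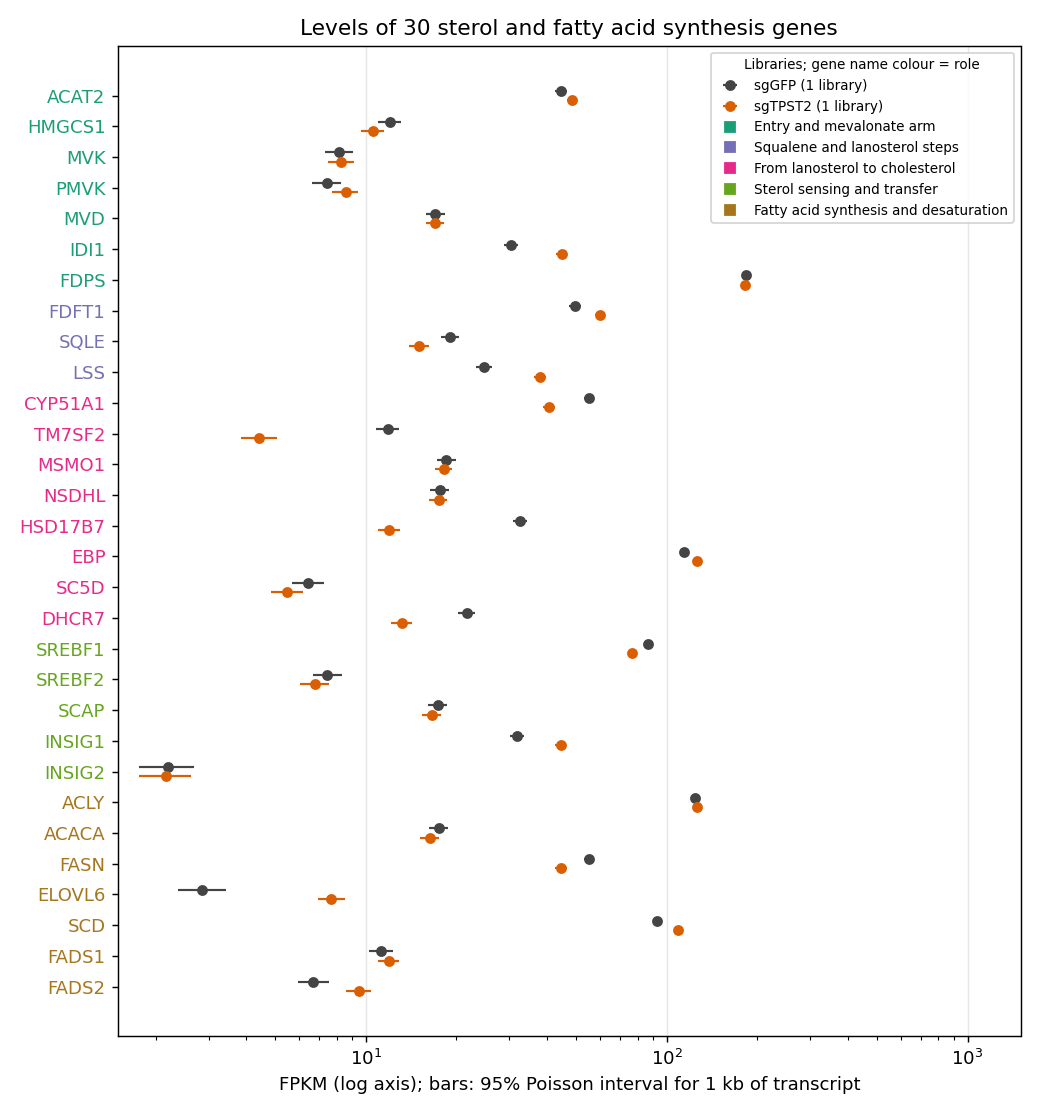
Level of 30 genes in FPKM (log axis) in the sgGFP library (grey) and the sgTPST2 library (orange), in pathway order, with 95% Poisson intervals for 1 kb of transcript as bars and the colour of the gene name giving its role. The points of TM7SF2, HSD17B7, DHCR7, LSS and ELOVL6 are the widest apart, and STARD4, listed at 0 in both, is not drawn.

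The sequences just upstream of the 5 genes furthest apart are shown because SREBP target genes typically carry control elements close to the start. Each is 250 bases read 5′ to 3′ on the gene's strand up to the RefSeq start (build GRCh38.p14), in lower case, with CCAAT boxes (CCAAT or its reverse, ATTGG) in capitals; these are the sites of NF-Y, a common partner of SREBPs. For DHCR7 the window of the downstream of 2 annotated starts is given. HSD17B7 is at chr1:162790452-162790701 (+ strand), TM7SF2 at chr11:65111622-65111871 (+), DHCR7 at chr11:71448394-71448643 (-), LSS at chr21:46228775-46229024 (-) and ELOVL6 at chr4:110198616-110198865 (-).
HSD17B7: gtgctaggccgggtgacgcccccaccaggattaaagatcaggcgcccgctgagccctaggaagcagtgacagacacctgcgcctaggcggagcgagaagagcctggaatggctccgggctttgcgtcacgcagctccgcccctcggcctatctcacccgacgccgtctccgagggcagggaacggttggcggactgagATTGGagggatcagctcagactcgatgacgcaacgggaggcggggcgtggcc
TM7SF2: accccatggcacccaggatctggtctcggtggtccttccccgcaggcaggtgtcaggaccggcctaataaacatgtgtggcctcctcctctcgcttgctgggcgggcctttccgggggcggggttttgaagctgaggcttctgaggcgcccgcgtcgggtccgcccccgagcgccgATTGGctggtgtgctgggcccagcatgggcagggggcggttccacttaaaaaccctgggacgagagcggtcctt
DHCR7: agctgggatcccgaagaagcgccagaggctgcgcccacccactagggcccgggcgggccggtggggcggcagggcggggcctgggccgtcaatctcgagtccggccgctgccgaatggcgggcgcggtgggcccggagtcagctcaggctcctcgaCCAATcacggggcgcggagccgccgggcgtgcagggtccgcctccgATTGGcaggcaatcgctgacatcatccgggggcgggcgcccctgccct
LSS: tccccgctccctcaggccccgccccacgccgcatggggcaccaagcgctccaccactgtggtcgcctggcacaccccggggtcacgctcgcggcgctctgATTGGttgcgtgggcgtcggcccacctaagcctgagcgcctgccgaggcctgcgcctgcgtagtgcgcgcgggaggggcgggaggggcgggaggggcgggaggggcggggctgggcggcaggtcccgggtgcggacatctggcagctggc
ELOVL6: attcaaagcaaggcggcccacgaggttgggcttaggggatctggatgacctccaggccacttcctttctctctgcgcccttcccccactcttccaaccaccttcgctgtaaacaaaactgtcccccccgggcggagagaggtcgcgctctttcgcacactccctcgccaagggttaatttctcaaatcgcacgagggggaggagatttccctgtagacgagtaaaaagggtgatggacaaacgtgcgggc

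The 3 lower genes and the higher LSS alike carry a CCAAT box in the window printed, and ELOVL6 has none there. The window of the other, upstream start of DHCR7, which is not printed, has none either. In HSD17B7 its first base lies 52 bases upstream of the start, in TM7SF2 74, in LSS 150, and the pair in DHCR7 lies 94 and 48 upstream. Over the family, 27 of the 31 genes had a window in the table (not FDFT1, SQLE, ACAT2 or FASN). A CCAAT box was found in 19 of the 27 (70.4%), against 32.0% of the 35116 windows searched and 40.2% of the protein-coding genes searched. Chromosome 8 was left out of the search, here and for the motifs below. A GC box (GGGCGG or CCGCCC, the site of SP1-type factors) was found in 26 of 27, against 42.6% of windows and 62.1% of coding genes. The sterol regulatory element core TCACNCCA (or TGGNGTGA), which SREBPs bind, was found only in MVK, MSMO1 and SREBF2 (11.1% of the 27), against 3.20% of windows and 4.03% of coding genes. The E-box CACGTG, which its own reverse complement spells too, was found in SC5D, INSIG1 and SCAP (also 11.1%), against 6.34% of windows and 9.73% of coding genes. Both strands were searched, genes with more than 1 start had more than 1 chance of a match, and a match is a description of letters. The 3 genes with a sterol element core differed by 0.02 (MVK), -0.03 (MSMO1) and -0.12 (SREBF2). Only the exact letters were searched, so a window without a match cannot be read as lacking an SREBP site. HMGCS1 and INSIG1, both SREBP targets, had no match to this core. Whether the sites bear on the differences was not tested.

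The steps from lanosterol to cholesterol held all 3 of the lower genes. Of the 8 enzymes here, 7 lay below 0, 3 of them by at least 1.5-fold, and the median was -0.32. Over all genes past the filter 6.94% were lower by at least 1.5-fold, and the median was -0.00019. The 7 include MSMO1 and NSDHL, at only -0.03 and -0.02. The groups of steps were drawn with earlier results of these data known, so the counts are a description. The summed level of the 8 enzymes was 278 FPKM in sgGFP and 237 in sgTPST2. HSD17B7 (ENSG00000132196.14, chromosome 1, 162790702 to 162812817) is the ketoreductase of C4 demethylation and also acts on estrogens. It stood at 32.6 FPKM in sgGFP (30.9 to 34.4) and at 11.95 in sgTPST2 (10.99 to 12.97), a log2 difference of -1.37 and a ratio of 2.73 in FPKM. Only 218 of the 13420 genes past the filter lay at or below that value, or 1.62%. MSMO1 and NSDHL, the methyl oxidase and the decarboxylating dehydrogenase that act with HSD17B7 to remove the same methyl groups, did not share its difference. MSMO1 was at 18.5 and 18.1 FPKM and NSDHL at 17.6 and 17.4, which is 1.02-fold and 1.011-fold between the libraries. The transcribed pseudogene HSD17B7P2 was at 0.337 FPKM in sgGFP and 0.460 in sgTPST2, so the reads assigned to it were few. How the counting treated reads that match both copies is not stated in the labels.

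TM7SF2 (ENSG00000149809.14, chromosome 11, 65111845 to 65116384), a sterol C14 reductase that works directly after CYP51A1, stood at 11.8 FPKM in sgGFP (10.8 to 12.9) and at 4.41 in sgTPST2 (3.83 to 5.05). The log2 difference was -1.24 and the FPKM ratio 2.68, with 1.97% of genes at or below it. The gene VPS51, which overlaps it on the same strand, was at 16.6 and 13.9 FPKM, a smaller step in the same direction; how reads in the overlap were divided is not given. DHCR7 (ENSG00000172893.15, chromosome 11, 71428193 to 71452868), which reduces 7-dehydrocholesterol to cholesterol, was at 21.6 FPKM (20.25 to 23.1) and 13.2 (12.2 to 14.2), a difference of -0.68, and 5.64% of genes lay at or below it. An antisense transcript over DHCR7, AP002387.1, was at 3.99 and 4.62 FPKM.

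The other enzymes of the late arm differed less. CYP51A1, the lanosterol C14 demethylase that opens it, was at 55.2 FPKM in sgGFP and 40.5 in sgTPST2 (difference -0.44), with intervals that did not overlap, and AC000120.3, which overlaps it on the same strand, was at 5.97 and 3.60. SC5D, the desaturase that makes 7-dehydrocholesterol or its counterpart, was at 6.44 and 5.48 FPKM, with overlapping intervals. EBP, the sterol isomerase before it, was the 1 gene of the late arm above 0, at 114 and 126 FPKM (0.14), and the most abundant of the 8 in both libraries. In FPKM, HSD17B7, CYP51A1, DHCR7 and TM7SF2, in that order, were the late-arm transcripts lower by the most.

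**Figure D3:**
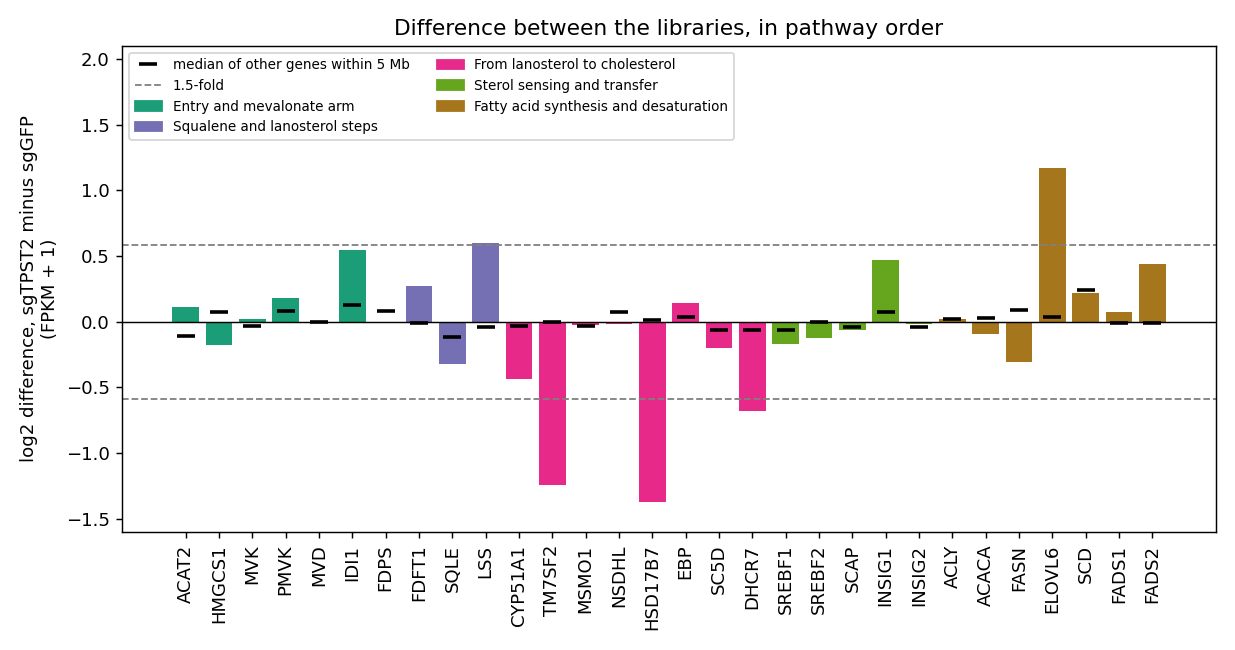
Log2 difference between sgTPST2 and sgGFP (vertical, FPKM + 1) for each of 30 genes in pathway order, coloured by role, with the median difference of other genes within 5 Mb as a black dash and 1.5-fold as dashed lines. HSD17B7, TM7SF2 and DHCR7 lie below the lower line and LSS and ELOVL6 above the upper, while the dashes stay between -0.11 and 0.24.

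In the entry and mevalonate arm, none of the 7 genes was 1.5-fold apart, the median was 0.02, and the summed level was 303 FPKM in sgGFP and 320.2 in sgTPST2. FDPS, which makes farnesyl diphosphate, was the most abundant member of all, at 184 and 183 FPKM. MVD, the mevalonate diphosphate decarboxylase, was at 17.0 in both. The kinases MVK and PMVK were at 8.15 and 8.28 FPKM and at 7.41 and 8.55, each with overlapping intervals. HMGCS1, the HMG-CoA synthase of the cytosol and a classical SREBP target, was at 12.02 and 10.54 FPKM (-0.17), also with overlapping intervals. ACAT2, the thiolase that joins acetyl-CoA units, was at 44.7 and 48.4 FPKM. It overlaps the abundant chaperonin gene TCP1 on the opposite strand, at 404 and 402 FPKM, and the strand setting of the counting is not given. IDI1, the isomerase of isopentenyl diphosphate, was the 1 gene of this arm that stood apart, at 30.4 FPKM (28.8 to 32.1) and 44.8 (42.9 to 46.8). Its difference was 0.54, and the median of 25 other genes within 5 Mb on chromosome 10 was 0.13.

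Of the 3 enzymes from farnesyl diphosphate to lanosterol, LSS and FDFT1 were higher and SQLE was lower. Only LSS was 1.5-fold apart, beside 4.41% of all genes past the filter that were higher by that much, and 3 genes are too few to compare shares. LSS (ENSG00000160285.14, chromosome 21, 46188141 to 46228824), the cyclase that forms lanosterol, stood at 24.7 FPKM in sgGFP (23.3 to 26.3) and 37.9 in sgTPST2 (36.2 to 39.7), a difference of 0.60, and 4.28% of genes lay at or above it. FDFT1, the squalene synthase, was at 49.6 and 60.0 FPKM (0.27). SQLE, the squalene epoxidase and a rate-controlling step of the late pathway, went the other way, at 19.01 and 15.04 FPKM (-0.32). For all 3 the intervals did not overlap, as for 42.1% of protein-coding genes past the filter. LSS and CYP51A1, which handle lanosterol in successive steps, thus differed in opposite directions, and in sgGFP CYP51A1 was the higher of the pair (55.2 and 24.7 FPKM) while in sgTPST2 they were close (40.5 and 37.9).

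Among the regulators, the SREBP genes and their escort lay within 1.2-fold and INSIG1 was higher. SREBF1, whose product drives mainly fatty acid genes, was at 86.6 FPKM in sgGFP and 76.7 in sgTPST2 (-0.17), far above SREBF2, which drives mainly sterol genes and was at 7.44 and 6.75. The intervals of SREBF1 did not overlap (83.8 to 89.5 in sgGFP and 74.3 to 79.3 in sgTPST2), and those of SREBF2 did. SCAP was at 17.3 and 16.5 FPKM, with overlapping intervals. INSIG1, itself induced by SREBPs and a retention factor for SCAP, was at 31.9 FPKM (30.2 to 33.6) and 44.5 (42.6 to 46.4), a difference of 0.47 with 6.70% of genes at or above it. INSIG2, its close relative, was low in both, at 2.20 and 2.17 FPKM. STARD4, a cytosolic sterol carrier and known SREBP target, was listed at 0 in both libraries and was not tested by the authors. The 8 genes that the table places in its locus, STARD4 included, all lay at or below 0.317 FPKM.

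Among fatty acid genes the elongase ELOVL6 stood furthest apart. Of the 7 genes, it alone was 1.5-fold apart, and the intervals also did not overlap for FASN, SCD and FADS2, while ACLY, ACACA and FADS1 lay within 1.1-fold. Among protein-coding genes past the filter, 42.1% had intervals that did not overlap. The median was 0.08, or -0.0014 with each gene's neighbours subtracted, and the summed level was 311 FPKM in sgGFP and 324 in sgTPST2. ELOVL6 (ENSG00000170522.9, chromosome 4, 110045846 to 110199199) extends palmitate to stearate. It was at 2.85 FPKM in sgGFP (2.37 to 3.42) and 7.68 in sgTPST2 (6.92 to 8.515), a log2 difference of 1.17 and an FPKM ratio of 2.69, and 1.103% of genes lay at or above it. For 1 kb of transcript these values rest on about 120 and 366 fragments. ACLY, which makes cytosolic acetyl-CoA from citrate, was at 124 and 126 FPKM, and ACACA, the acetyl-CoA carboxylase, at 17.4 and 16.3. FASN, the fatty acid synthase, was at 55.2 and 44.5 FPKM (-0.30), with intervals that did not overlap. ELOVL6 and FASN, both SREBP targets, therefore differed in opposite directions.

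Of the desaturases, SCD was at 93.0 FPKM in sgGFP and 109 in sgTPST2 (0.22). The median of 93 other genes within 5 Mb of SCD on chromosome 10 was 0.24, so SCD differed from its neighbourhood by -0.02. FADS2 was at 6.69 (5.93 to 7.52) and 9.46 (8.597 to 10.4) FPKM, a difference of 0.44, and FADS1, beside it, at 11.2 and 11.9. The annotated spans of FADS1 and FADS2 overlap on opposite strands, and FEN1, at 42.4 and 40.9 FPKM, lies within FADS2, so the division of reads between them is uncertain. For the 5 genes furthest apart, the median of neighbours within 5 Mb lay close to 0, at 0.01 for HSD17B7, 0.00 for TM7SF2, -0.06 for DHCR7, -0.04 for LSS and 0.04 for ELOVL6. As this was bulk RNA, fewer cells expressing a gene and less RNA per cell cannot be told apart.

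Neighbouring pathways were described on lists made by function. The isoprenoid and ubiquinone branch, which leaves the sterol route at farnesyl diphosphate, had 0 of 14 genes 1.5-fold apart and a median of -0.01. SRD5A3, a reductase that makes dolichol, was at 24.3 and 17.6 FPKM, NUS1, a subunit of the dolichol-forming prenyltransferase, at 12.4 and 9.01, and PDSS2, which builds the ubiquinone tail, at 14.8 and 11.9. The 12 genes of SREBP processing and sterol-regulated degradation had a median of -0.08 and 0 apart. Among them the site-2 protease MBTPS2 was at 9.05 and 6.66 FPKM, the Golgi anchor PAQR3 at 11.1 and 8.62, and ERLIN1 at 28.2 and 37.5, in a chromosome 10 neighbourhood with a median of 0.23. Sterol uptake, transport and esterification genes had a median of 0.09 over 12 past the filter of 13, with 0 apart: GRAMD1B, a sterol transporter of the endoplasmic reticulum, was at 52.8 and 73.4 FPKM, the lysosomal sterol binder NPC2 at 97.5 and 121, and the lysosomal lipase LIPA at 152 and 186.

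The list of LXR targets and efflux genes, which also holds the LXR receptors NR1H2 and NR1H3, went both ways. Of 7 genes, 2 were 1.5-fold lower and 2 higher, with a median of 0.22, which is the value of NR1H2. The list is therefore not a readout of sterol-responsive genes alone. Over all genes past the filter 6.94% were lower and 4.41% higher by that much, and 7 genes are too few to compare shares. LPCAT3, a lysophospholipid acyltransferase, was at 15.4 and 9.76 FPKM; it lies on chromosome 12, where 92 other genes within 5 Mb had a median of -0.72. MYLIP, a ubiquitin ligase, was at 7.12 and 8.56 FPKM and the receptor NR1H2 at 17.7 and 20.8. ABCA1, named after its values were seen, was low and not apart, at 1.05 and 0.864 FPKM. The other 3 genes apart, named after their values were seen, were low: the sterol exporter ABCG1 at 2.24 and 0.920 FPKM, the receptor NR1H3 at 1.89 and 3.50, and SMPDL3A at 0.526 and 1.36. Among 17 partners of fatty acid synthesis, 1 was lower and 0 higher, with a median of 0.02. The lower one was ELOVL7, at 1.39 and 0.501 FPKM, named after its values were seen. HSD17B12, the ketoreductase of fatty acid elongation, was at 66.9 and 44.8 FPKM (-0.57), HACD1, the dehydratase of the same cycle, at 70.6 and 52.6, and ME1, the malic enzyme that supplies NADPH, at 20.1 and 30.1 (0.56). The other elongation enzymes of this list at 5 FPKM or more differed less, TECR by 0.03, HACD2 by 0.05, HACD3 by 0.07, ELOVL1 by -0.10 and ELOVL5 by -0.10.

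**Figure D4:**
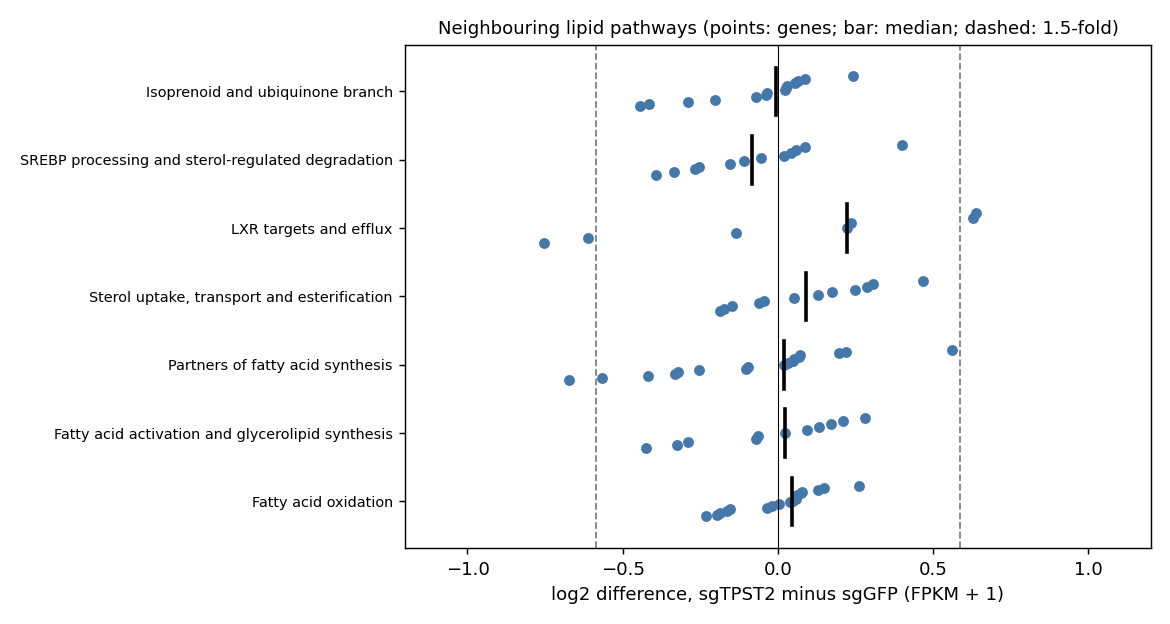
Log2 difference between sgTPST2 and sgGFP (horizontal, FPKM + 1) of each gene past the filter in 7 lists of neighbouring lipid pathways, with the median of each list as a black bar and 1.5-fold as dashed lines. The medians lie between -0.08 and 0.22, and the points beyond the dashed lines are 4 LXR-related genes and 1 elongase.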

How the data were processed

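Total RNA went into stranded libraries without poly(A) selection being named, per the labels' protocols. STAR and Cuffdiff with build hg38 are named, per the submitters' processing notes; the labels state no version, annotation release or strand setting. The authors deposited 1 value per gene and library, read here as FPKM, with Cuffdiff p-value and q-value columns and a log2 fold change that equals log2((sgTPST2 + 1)/(sgGFP + 1)) of the deposited values to within 2.1e-15. The test statistic is a deposited score, not used here. Columns summed to 1.010e+06 and 1.001e+06.

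Gene coordinates were taken from GENCODE release 29 (GRCh38), joined by gene ID; all IDs matched. With 1 library per group no test was made: differences used a pseudocount of 1 FPKM, a filter of 1 FPKM on the higher value and a limit of 1.5-fold. Depth was fitted on steps of low values in single-transcript genes over 1500 bp; 90.9% and 92.1% of 939 and 925 low values lay within 0.1 of a whole fragment, where evenly spread values would give 20%. Step and offset were fitted on the same values. Neighbours are genes past the filter within 5 Mb (at least 10). Upstream windows are RefSeq's (GRCh38.p14). Beside all members, up to 3 genes per list with the largest absolute difference at 5 FPKM or more were named. One listed gene is not reported here and was left out of its list's count and median. Members and lists were chosen with earlier results of these data known. Alternatives were other pseudocounts, filters, scalings, folds and a neighbour correction. Python 3.11.15, pandas 2.3.3 and scipy 1.17.1 were used; the scripts were tested on simulated data.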

Additional observations from a re-analysis of the deposited data

How the results depend on the processing

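The same 3 lower and 2 higher members were found with pseudocounts of 0.1 and 0.5, no filter, a mean of at least 5 FPKM, a common sum or a common upper quartile for both columns, the median gene set to 0, and subtraction of the neighbours' median. The fold limit changed the counts: at 1.2-fold 6 members were lower and 6 higher, and at 2-fold 2 were lower and 1 higher, LSS and DHCR7 dropping out. Shares over all genes were not counted at these limits, so these counts cannot be set against other genes. The quartiles of the log2 difference over all genes past the filter were -0.17 and 0.17. The members' median ranged from -0.015 to 0.00020 over 9 alternatives, one of which left out 5 members with pseudogenes, the late-arm median from -0.34 to -0.27 and the fatty acid median from -0.0014 (less the neighbours' median) to 0.087. Scaling to the same sum moved the median of all genes to 0.0115. Less their neighbours' median, FDPS stood at -0.09 and SCD at -0.02, each outside its counting interval. No paired analysis was possible because there was 1 library per group, so none could be left out either. Depth limits the low genes most: INSIG2 rests on about 92 and 103 fragments per kb.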

Other observations

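The routes that use or burn fatty acids were close between the libraries. Of 13 genes of fatty acid activation and glycerolipid synthesis, 11 passed the filter, 0 were 1.5-fold apart and the median log2 difference was 0.02. The acyl-CoA synthetase ACSL3 stood at 52.7 FPKM in sgGFP and 39.1 in sgTPST2, on chromosome 2 among 51 genes within 5 Mb whose median was -0.37. ACSL1, another acyl-CoA synthetase, was at 16.5 and 13.0 FPKM, and the phosphatidate phosphatase LPIN1 at 26.0 and 21.1. All 18 genes of fatty acid oxidation passed the filter, none was 1.5-fold apart, and the median was 0.04. Differences in that list ran from -0.23 to 0.26. At 5 FPKM or more, its members with the largest differences were CPT2, the inner carnitine palmitoyltransferase, at 13.2 and 11.4 FPKM, ACAA2, the mitochondrial thiolase, at 58.9 and 51.6, and ACADM, the medium-chain dehydrogenase, at 34.7 and 30.9.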
